A study of Homo sapiens with 2 samples.

Results

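The regions described here are the Flag-RBM47 binding clusters that lay in protein-coding sequence and in no other annotated part of a transcript. They were taken as every cluster whose deposited location label read CDS and nothing else. Clusters whose label also named a UTR or an intron were left to the other labels. The rule gave 22822 of 233546 clusters, or 9.77% (95% Wilson interval 9.65 to 9.89, counting error only). A combined label need not mean that a cluster crossed a boundary. In the gene FAT1, a 142-nt cluster labelled CDS and 5′UTR lay toward the 3′ end. Whether differences between transcripts gave such labels was not tested.

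RBM47 is an RNA-binding protein with RNA recognition motifs that acts on pre-mRNA and mRNA and can change splicing and transcript level. HITS-CLIP maps such contacts: living cells are irradiated so that RNA and protein in contact become linked, the protein is pulled down, and the RNA fragments attached to it are sequenced as tags, which pile up into clusters. Coding sequence is read by ribosomes in the cytoplasm, and proteins that regulate mRNA are best known for binding in introns and 3′UTRs, so binding within the reading frame is the less familiar class.

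Both libraries came from 1 group, MDA231-BrM2a, a non-clonal brain-metastatic derivative of the breast cancer line MDA-MB-231, which carried wild-type RBM47 with a Flag tag behind a promoter switched on by doxycycline and was given the drug at 1 ng/ml for 3 days before irradiation. The bound RBM47 was therefore an induced transgene product, and no library of untreated or empty-vector cells was analysed here, so there is no background to set beside any value. The clusters held 999047 tags in replicate 1 and 3489697 in replicate 2. The labels do not say whether the replicates were separate cultures, and their spread may be technical.

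Coding clusters were small and of middling depth. A CDS cluster held a median of 9 tags, 2 from replicate 1 and 7 from replicate 2, and spanned a median of 84 nt, with 10% of them over 152 nt. Every CDS cluster had at least 5 tags in all and at least 1 in each replicate, the lowest values in the whole table. Of the 22822, 11294 (49.5%) held 10 or more tags, 2286 (10.02%) held 30 or more and 310 (1.36%) held 100 or more. The 229 deepest clusters, 1% of the class, held 13.7% of its tags. Long clusters were rare: 216 spanned 300 nt or more, 43 spanned 500 nt or more and 4 spanned 1000 nt or more. Both strands were used about equally, with 50.6% of CDS clusters on the plus strand.

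CDS clusters took 8.17% of the tags of replicate 1 and 8.43% of those of replicate 2, a mean of 8.30% ± 0.185 (SD, n = 2). This was below the share of tags in 3′UTR clusters, 32.3% ± 1.52, and in intron clusters, 23.5% ± 1.75, and above that in 5′UTR clusters, 0.356% ± 0.0145 (SD, n = 2 each). These distances were larger than the spread between the replicates. The place of coding sequence moved with depth, since CDS clusters were 11.9% of all clusters with 10 or more tags, 10.3% of those with 30 or more and 6.88% of those with 100 or more.

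In both replicates a coding cluster held fewer tags than a 3′UTR cluster and more than an intron cluster. The mean log2 tag number per CDS cluster was 1.26 in replicate 1 and 3.08 in replicate 2, against 1.83 and 3.70 for 3′UTR clusters. The CDS minus 3′UTR difference on the log2 scale was therefore -0.57 in replicate 1 and -0.61 in replicate 2, with a mean of -0.59 ± 0.03 (SD, n = 2). When CDS and 3′UTR clusters of the same gene were compared, the difference was -1.04 ± 0.09, and CDS clusters were the lower in 3237 of 3740 genes, the higher in 473 and equal in 30.

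Against intron clusters, with log2 means of 0.94 and 2.58, the CDS difference was 0.32 in replicate 1 and 0.50 in replicate 2, a mean of 0.41 ± 0.13 (SD, n = 2), and CDS clusters were the higher in 1932 of 2577 genes that held both. This difference shrank to 0.24, 0.10 and 0.057 when only clusters with at least 10, 30 and 100 tags were counted. Against 5′UTR clusters the difference was 0.06 and 0.21, a mean of 0.13 ± 0.10 (SD, n = 2), and it turned negative once only clusters with 10 or more tags were counted (-0.0016). The exact two-sided sign-flip permutation test over the replicates gave p = 0.5 for each of these 3 differences, the smallest p that 2 replicates allow, so none of them could reach significance. CDS and 5′UTR clusters were not separated beyond the replicate spread in a way that held at every depth.

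**Figure D1:**
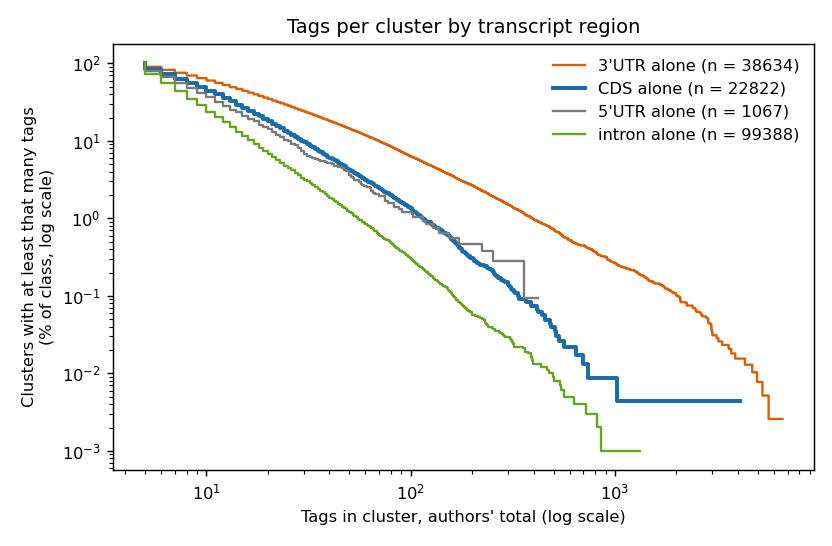
Tags per cluster (x axis, authors' total, log scale) against the percentage of clusters of each class with at least that many tags (y axis, log scale), for 22822 clusters in CDS alone, 38634 in 3′UTR alone, 1067 in 5′UTR alone and 99388 in intron alone. The CDS curve runs below the 3′UTR curve and above the intron curve, and it meets the 5′UTR curve near 100 tags.

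The replicates ranked single CDS clusters loosely and genes closely. Spearman's correlation between the tags of the 2 replicates was 0.510 over all 22822 CDS clusters, 0.524 over the 11294 with 10 or more tags, 0.676 over the 2286 with 30 or more and 0.742 over the 310 with 100 or more. It was 0.938 once tags were summed over the CDS clusters of each of 4262 genes. Of the CDS clusters, 55.9% had 1 or 2 tags in replicate 1. At the same minimums of 10, 30 and 100 tags the correlation over 3′UTR clusters was 0.758, 0.829 and 0.894, and the part of depth in these values was not tested. Clusters and genes are not independent replicates, and the sums share the library depths, so these are descriptions.

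Replicate 1 supplied 21.7% of the replicate tags in CDS clusters (95% Wilson interval 21.6 to 21.8), near its 22.3% of all tags and between its shares in 3′UTR clusters (21.1%) and in intron clusters (24.1%). The split of each cluster was tested against 22.3% with an exact two-sided binomial test and Benjamini-Hochberg adjustment over all clusters, which compares the 2 libraries and not conditions. It called 26 of 233546 clusters (0.0111%) at an adjusted p of 0.05 or below, 2 of them in coding sequence.

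The first was a 126-nt cluster in CANX, which encodes the endoplasmic reticulum chaperone calnexin, at chr5:179083261-179083387 on the plus strand (hg18). It held 31 tags in replicate 1 and 274 in replicate 2, a replicate 1 share of 10.2% (95% Wilson interval 7.25 to 14.1; exact binomial test, adjusted p = 0.000836). The other was a 175-nt cluster in ANKRD1, a cardiac-type ankyrin repeat protein and a known target gene of YAP, at chr10:92665273-92665448 on the minus strand. It held 21 and 198 tags, a share of 9.59% (6.36 to 14.2; exact binomial test, adjusted p = 0.0129). Both were low in replicate 1. Scaling by the median ratio of the replicates called 18 clusters (0.00771%) and 1 in coding sequence, and a beta-binomial test called 11 (0.00471%) and 0 in coding sequence. The exact binomial test called 32 (0.145%) among clusters of 30 or more tags and 25 (0.0123%) among those whose replicate counts added up to the total, 2 of them in coding sequence in each case. At an unadjusted p under 0.05, 626 CDS clusters (2.74%) passed the exact binomial test, against 3.04% of all clusters, and 333 (1.46%) passed the beta-binomial test, against 1.55% of all clusters.

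**Figure D2:**
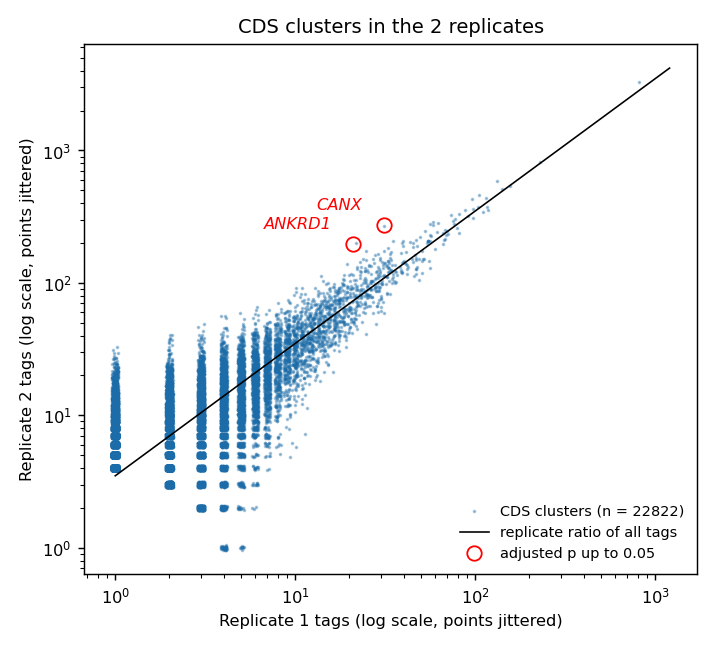
Tags in replicate 1 (x axis) and replicate 2 (y axis) for each of the 22822 CDS clusters, both on log scales and with points jittered. The line is the ratio of all tags in the 2 replicates, and red rings mark the clusters of CANX and ANKRD1 with an adjusted p of 0.05 or below, both of which lie above the line.

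The CDS clusters fell in 4262 of the 7712 genes that had any cluster (55.3%), and 19 clusters carried no gene. Protein-coding genes made up 4207 of the 4262 by RefSeq, 45 genes had another biotype and 10 were not matched. A gene held a median of 3 CDS clusters and 28 tags. There were 1184 genes with 1 CDS cluster and 643 with 10 or more, and the latter held 59.0% of the tags. More than 100 tags in CDS clusters were found for 878 genes and more than 1000 for 35. Coding binding seldom stood alone: 188 genes had no cluster of another kind, and 522 had no cluster in 3′UTR alone. Conversely, 2269 of 6009 genes with 3′UTR clusters had none in CDS alone.

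Transcript abundance was not measured in these libraries, so a high tag number from a plentiful mRNA and one from a strongly bound mRNA cannot be told apart, and the tag sums of genes also depend on coding length. With that limit, the 25 genes with the most tags held 14.5% of all tags in CDS clusters. They included very large proteins of the cell surface and cytoskeleton. Genes of shorter coding sequence, such as EIF4G2 (2721 nt) and CANX (1776 nt), were also near the top.

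FAT1, a giant atypical cadherin of the cell surface, led with 1937 tags in replicate 1 and 7868 in replicate 2, summed over 34 CDS clusters. That was 2.10 ± 0.223 (SD, n = 2) of every 1000 tags in a replicate, and 2.63% of all tags in CDS clusters. FAT1 lay well above the rest of the 25 genes in both replicates.

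EIF4G2, a translation initiation factor related to eIF4G that lacks its binding region for the cap-binding protein, held 560 and 2275 tags in 15 clusters (0.606 ± 0.0646 per 1000). CANX held 537 and 2164 tags in 12 clusters (0.579 ± 0.0584). ATP13A3, a P-type ATPase that carries polyamines, held 545 and 2116 tags in 30 clusters (0.576 ± 0.0430). The replicate values of EIF4G2, CANX and ATP13A3 overlapped, and their order was not resolved.

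Below them came the scaffold and cytoskeletal linker genes. AHNAK, a giant scaffold protein, held 482 and 1839 tags in 73 clusters. MACF1, a spectraplakin that links actin to microtubules, held 454 and 1684 tags in 110 clusters, the most clusters under any one symbol. SPTBN1, the beta chain of non-erythroid spectrin, held 437 and 1623 tags in 46 clusters. The remaining genes of the 25 ranged from 2033 tags in EXT1, a heparan sulphate polymerase, down to 1175 in DYNC1H1, the heavy chain of cytoplasmic dynein. They included the adhesion genes ITGB1, the beta 1 integrin subunit (1941 tags), and THBS1, thrombospondin 1 (1506), the vesicle coat gene CLTC, clathrin heavy chain (1317), and the microtubule-associated gene MAP1B (1681). ERBB2IP, now named ERBIN, a scaffold that binds ERBB2, held 1976, and PRRC2C, a large disordered protein, held 1774. HSP90B1, the HSP90 paralogue of the endoplasmic reticulum, held 1365 and ATP2A2, the SERCA2 calcium pump, 1287. USP34, a deubiquitinase, held 1375 and MED13, a subunit of the Mediator kinase module, 1203. Outside the 25, but among the genes with the most CDS clusters, were BIRC6, a giant inhibitor-of-apoptosis protein, with 77 clusters and 236 and 896 tags, and KMT2C, a histone methyltransferase, with 55 clusters and 226 and 731 tags.

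**Figure D3:**
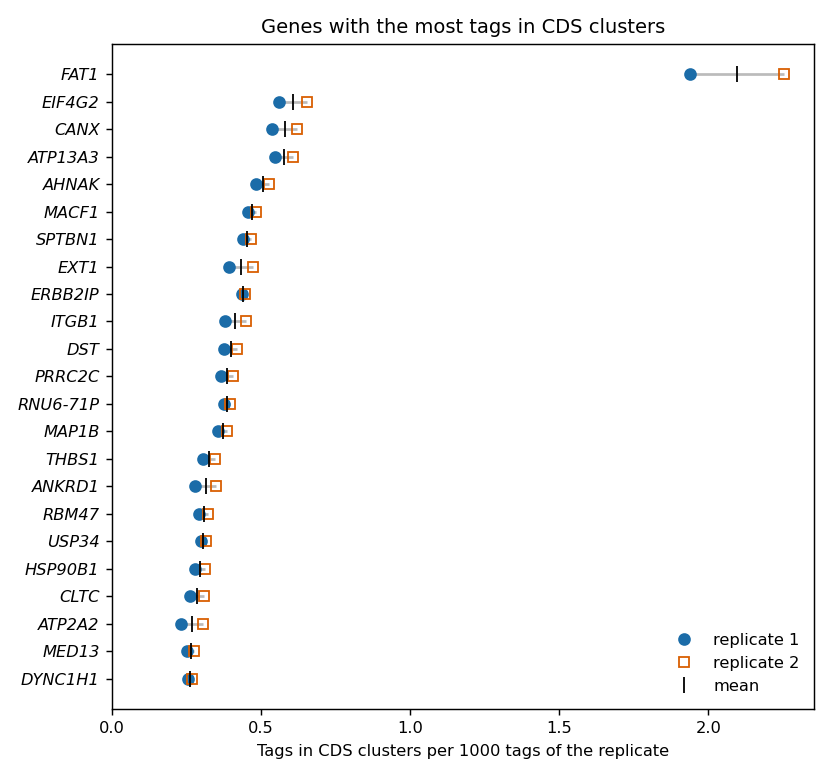
Tags in CDS clusters per 1000 tags of each replicate (x axis, from 0) for 23 of the 25 genes with the most tags in CDS clusters (y axis); circles are replicate 1, squares replicate 2, and ticks their mean. FAT1 sits at 1.94 and 2.25, and EIF4G2, below it, at 0.561 and 0.652.

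Within FAT1 one region stood out. The deepest CDS cluster of the whole table lay at chr4:187775859-187779949 on the minus strand (hg18), spanned 4090 nt and held 814 tags in replicate 1 and 3300 in replicate 2. It alone carried 42.0% of the tags in the gene's CDS clusters. The longest coding exon of the FAT1 reference transcript is 4068 nt, so the cluster was about as long as that exon. Toward the start of the gene, a run of 4 touching clusters between positions 187864707 and 187867603 held 103, 1025, 565 and 204 tags, the 1025 in a cluster of 1267 nt and the 565 in one of 1070 nt. Of the 34 CDS clusters, 20 held 100 tags or more and the lowest held 17. The 3′UTR-alone clusters of FAT1 held 14 tags, while the cluster that joined its last coding part to the 3′UTR held 1825.

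Besides 3 clusters of FAT1, the 10 deepest CDS clusters lay in EXT1, ERBB2IP, IL8, CANX, RBM47 and DKK1. The EXT1 cluster spanned 900 nt and held 136 tags in replicate 1 and 602 in replicate 2. EXT1 was bound mostly elsewhere, with 50519 tags in its introns and 3.74% of its tags in CDS-alone clusters. The ERBB2IP cluster, at chr5:65385625-65386605 on the plus strand, spanned 980 nt and held 150 and 548 tags.

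CANX showed another layout, with many short CDS clusters and a single far deeper cluster at the end. Its 12 CDS clusters were 62 to 241 nt long and held 38 to 533 tags, the most in the 206-nt cluster at chr5:179069464-179069670, with 112 and 421 tags. The 2414-nt cluster that spanned the end of the coding sequence and the 3′UTR held 21607. CDS-alone clusters thus held 10.9% of the tags of CANX. EIF4G2 was the reverse: its 15 CDS clusters held 62.2% of its tags, and the cluster joining CDS and 3′UTR held 1238. Its 6 deepest CDS clusters held between 283 and 422 tags each, so no single region led.

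IL8, now named CXCL8, which encodes a neutrophil-attracting chemokine, and DKK1, which encodes a secreted Wnt antagonist, each had few but deep coding clusters. IL8 had 2 CDS clusters with 158 tags in replicate 1 and 566 in replicate 2. Of its 724 tags, 644 lay in the 155-nt cluster at chr4:74826108-74826263. DKK1 had 3 CDS clusters with 138 and 479 tags, and 484 of its 609 tags lay in the 161-nt cluster at chr10:53746058-53746219. In both genes the coding clusters were a minor part, since the cluster across CDS and 3′UTR held 16260 tags in IL8 and 19199 in DKK1, and CDS-alone clusters held 4.21% and 2.99% of the tags of the gene.

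The RBM47 mRNA was itself among the 25 genes. Its 4 CDS clusters held 291 tags in replicate 1 and 1122 in replicate 2, and its deepest, 678 nt long at chr4:40134543-40135221, held 96 and 419. CDS-alone clusters held 72.5% of the tags of RBM47. The gene had 0 tags in clusters of intron or 3′UTR alone, 438 in the cluster joining CDS and 3′UTR and 98 in that joining CDS and 5′UTR. These cells carried an RBM47 transgene, and tags from the transgene and from the endogenous gene cannot be told apart in this table.

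The amount of coding sequence under clusters was set against the coding length of each gene's reference transcript, which could be read for 4178 of the 4262 genes (98.0%). CDS clusters held a length equal to a median of 18.7% of the coding sequence. The figure passed 50% in 620 genes, 75% in 150 and 100% in 15, where the clusters held more sequence than the reference transcript codes for. EXT1 reached 99.1%, CANX 97.1%, FAT1 92.9% and SPTBN1 91.2%. Of 22481 clusters, 134 (0.596%) were longer than the longest coding exon of their gene. Clusters were not compared with the exon they lay in.

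Per 1000 nt of coding sequence the order of the genes changed. The median gene held 19.1 tags per 1000 nt. IL8 was highest with 2438, followed by ANKRD1 with 1560, CANX with 1520 and EIF4G2 with 1040. SSR1, a subunit of the translocon-associated protein complex, had 1027, EXT1 908, the membrane sialomucin TMEM123 864, the intermediate filament gene VIM 815, ITGB1 811 and RBM47 794. DKK1 followed with 763. SSR1, TMEM123 and VIM were named after their values were seen. FAT1, first in total tags, was in thirteenth place with 711, and DYNC1H1 had 84.3. In ANKRD1 and SSR1 the clusters held 211% and 101.5% of the coding length used. Part of the clustered sequence of these genes thus lay outside that length, and their values are not strictly per coding sequence.

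**Figure D4:**
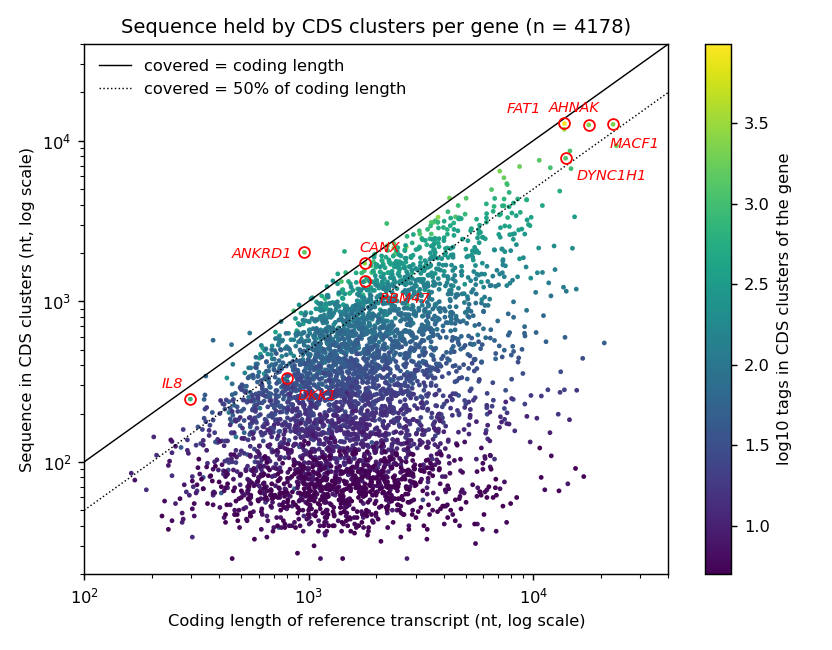
Coding length of the reference transcript (x axis, nt, log scale) against the sequence held by CDS clusters (y axis, nt, log scale) for 4178 genes, coloured by log10 tags, with the lines of equality and of 50%. Red rings mark FAT1, AHNAK, MACF1, DYNC1H1, CANX, IL8, DKK1, RBM47 and ANKRD1, and ANKRD1 lies above the line of equality.

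The share of a gene's tags that lay in CDS-alone clusters was usually small. Over 3125 genes with 100 or more tags in all and at least 1 CDS cluster its median was 10% (10.2% in replicate 1 and 9.79% in replicate 2), with 10% of genes below 2.42% and 10% above 37.3%, and it passed 50% in 164 genes. CDS tags outnumbered tags in 3′UTR-alone clusters in 650 of 3740 genes with both (17.4%). That count leaves out clusters labelled both CDS and 3′UTR, so it does not compare coding sequence with all 3′UTR binding. CANX, for example, had 2700 CDS tags and 125 in 3′UTR alone, but 21607 under the combined label.

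Among genes with 500 or more tags, the 10 with the largest coding share included DYNC1H1, AHNAK, FSTL1, HSP90B1, GOLGB1, USP9X, NCOA6, FAT1 and HUWE1, from 89.5% down to 73.5%. DYNC1H1 had 255 CDS tags in replicate 1 and 929 in replicate 2, which made 89.2% and 89.6% of its tags. FSTL1, a secreted follistatin-like protein, had 82 and 322, or 79.6% and 78.2%. USP9X, a deubiquitinase, had 197 and 762, or 79.8% and 74.8%, and GOLGB1, the large Golgi tether giantin, had 106 and 315, or 84.1% and 75.5%. NCOA6, a nuclear receptor coactivator, had 79 and 333, and HUWE1, a giant ubiquitin ligase, had 133 and 445. In each of these 9 genes coding sequence held the larger part of the tags in both replicates. FSTL1 had no cluster in 3′UTR alone and 109 tags in introns.

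Longer coding sequences held more of their gene's tags. In 3081 genes split into 3 groups by coding length, the median coding share was 6.11% for 162 to 1233 nt (6.25% and 5.86% in the replicates), 10.1% for 1236 to 2235 nt, and 16.7% for 2238 to 23454 nt (17.3% and 16.9%). The covered part of the coding sequence went the other way, with medians of 31.1%, 24.7% and 22.0%. Across genes, Spearman's correlation of coding length was 0.416 with the coding share, 0.418 with the number of CDS clusters and 0.266 with CDS tags. UTR length and mRNA level were not accounted for, and their part in this was not tested.

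The coding sequences of genes with CDS clusters were richer in U than others. Their median U content was 24.2% and GC content 46.0% (n = 4178 genes), against 21.9% and 51.4% for 2542 genes with clusters but with CDS in no label, and 21.7% and 52.9% for all 19869 coding genes of the reference. The 25 genes with the most CDS tags per 1000 nt had a median U content of 25.3%, and the 25 with the most CDS tags in all had one of 24.0%. The Spearman correlation between U content and CDS tags per 1000 nt was 0.189 across genes, and that of GC content was -0.149, both weak. The values describe whole coding sequences and not the bound stretches, whose sequence was not read here because no genome of the files' build was used. Expression level, which these libraries do not measure, was not accounted for.

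**Figure D5:**
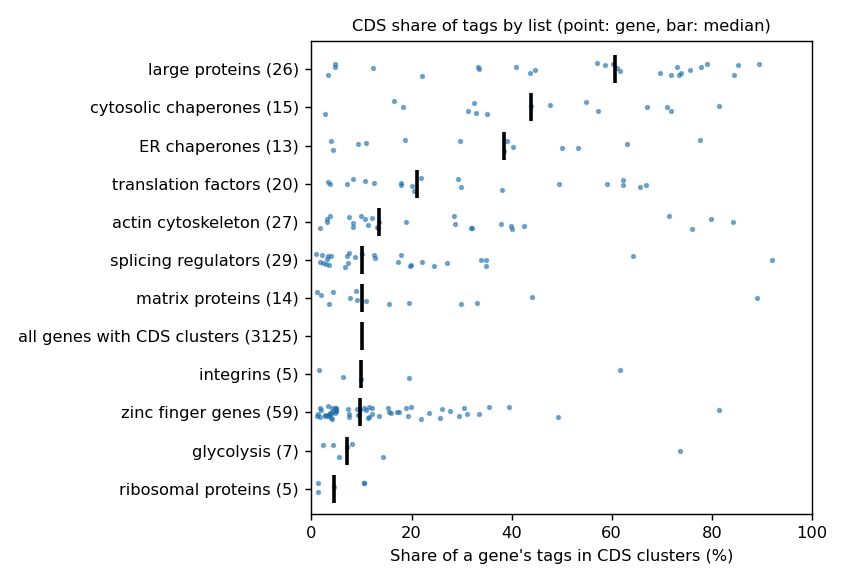
Share of a gene's tags in CDS-alone clusters (x axis, percent) for genes with 100 or more tags in each gene list (y axis, number of genes in parentheses); points are genes and bars are medians, and for all 3125 genes the median alone is drawn. The median is 60.6% for large proteins, 10% for all genes and 4.40% for ribosomal proteins.

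Gene lists of known function were described by their counts and medians. To set beside them, 55.3% of all genes with any cluster had CDS clusters. That share counts genes of every biotype, noncoding ones among them, so it is a low mark for lists of protein-coding genes. Of all genes with a CDS cluster and 100 or more tags, 5.25% had a coding share above 50%. In tags and coding share, genes for very large proteins stood highest. CDS clusters lay in 38 of 41 with any cluster (92.7%), and these held 26350 tags (7.08% of all in CDS clusters). Their median coding share was 60.6%, above 50% in 16 of 26 genes with 100 or more tags (61.5%), against 5.25% of all genes. FAT1, AHNAK and MACF1 held the most. The list was chosen for length, and coding length and coding share rose together across genes. Those with CDS clusters had a median of 11.6 tags per 1000 nt of coding sequence and 12.4% covered. The medians of all genes with CDS clusters were 19.1 and 18.7%. Every cluster held at least 5 tags, and long coding sequences can take lower values per length than short ones above that minimum.

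Chaperones came next in coding share. Of 17 endoplasmic reticulum chaperone genes 15 had CDS clusters (88.2%), with 6767 tags and a median share of 38.5%. CANX led, HSP90B1 had 279 and 1088 tags (77.6% of its tags), and UGGT1, the glucosyltransferase that senses misfolded glycoproteins, had 116 and 454 (39.0%). Of 23 cytosolic chaperone genes 17 had CDS clusters (73.9%), with 1993 tags and a median share of 43.8%, above 50% in 6 of 15 genes (40%). HSPA4, an HSP110-type exchange factor, had 64 and 245 tags (71.1%), HSPH1, its relative, 55 and 153 (47.6%), and HSP90AA1, the inducible cytosolic HSP90, 43 and 144 (32.9%).

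Of 31 translation factor genes 26 had CDS clusters (83.9%), with 6681 tags and a median share of 21.1%. After EIF4G2 came PABPC1, the cytoplasmic poly(A)-binding protein, with 227 and 827 tags (66.8%), and EIF3A, the largest eIF3 subunit, with 111 and 401 (65.8%). Ribosomal protein genes held far fewer tags: 31 of 48 had CDS clusters (64.6%, against 55.3% of all genes), with 572 tags in all. No gene passed 100, and the highest, RPS13, had 18 and 60. RPL4 and RPL6 followed with 67 and 49 tags. Those with CDS clusters had a median of 20.2 tags per 1000 nt of coding sequence. The median of all genes with CDS clusters was 19.1. Every cluster held at least 5 tags, so a short coding sequence with any cluster cannot take a low value. These medians therefore do not show whether ribosomal protein genes were low for their length.

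Of 34 actin cytoskeleton genes 28 had CDS clusters (82.4%), with 5562 tags and a median share of 13.5%. SPTBN1 and IQGAP1, a scaffold that binds actin and calmodulin (178 and 633 tags), led. Of 9 integrin genes 7 had CDS clusters (77.8%), with 3260 tags and a median share of 9.94%. After ITGB1 came ITGA6 with 161 and 651 tags and ITGAV with 61 and 265. Of 22 matrix genes 14 had CDS clusters (63.6%, near the 55.3% of all genes), with 2740 tags and a median share of 10.0%. In this list THBS1 was followed by CYR61 and CTGF, now named CCN1 and CCN2, matricellular proteins and known YAP targets, with 90 and 223 and with 48 and 155 tags. In CTGF the coding share was 1.95%, since 9947 tags lay in the cluster joining CDS and 3′UTR.

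Of 39 splicing regulator genes 34 had CDS clusters (87.2%), with 2825 tags and a median share of 10.04%. HNRNPH1 had 72 and 337 tags, SRRM2, a large serine- and arginine-rich protein, 64 and 230, and PCBP1, a poly(C)-binding protein, 55 and 200. SRRM2 had a coding share of 92.1%. Of 222 numbered zinc finger genes 94 had CDS clusters (42.3%, against 55.3% of all genes), with 4709 tags and a median share of 9.61%. ZNF644 had 120 and 407 tags, ZNF292 110 and 400, and ZNF804A 67 and 239, the latter 1.73% of its tags beside 16980 in introns.

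Few tags lay in the glycolysis and histone lists. Of 13 glycolysis genes 10 had CDS clusters (76.9%), with 385 tags. The most lay in LDHB, a lactate dehydrogenase subunit (26 and 118), then PKM (68 in all) and HK2 (53). Of 11 histone genes 3 had CDS clusters (27.3%), with 85 tags, among them H2AFY (47) and H3F3B (5), now named MACROH2A1 and H3-3B. A short list of genes known to lack coding introns, 7 with any cluster, had 1 with a CDS cluster, the AP-1 gene JUN, with 5 tags. That list does not stand for all such genes: PCBP1, whose reference transcript has 1 coding exon, held 255.

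Genes that the study followed one by one, named for that reason, held at most 284 CDS tags apart from RBM47, IL8 and DKK1. SEC31A, a coat protein of vesicles leaving the endoplasmic reticulum, had 56 tags in replicate 1 and 229 in replicate 2 over 18 CDS clusters, which made 47.2% of its tags. SLK, a STE20-like kinase, had 51 and 179 in 18 clusters (22.5%), and LIMCH1, an actin-associated protein, 45 and 167 in 10 clusters (8.99%). MBNL1, a splicing regulator, had 17 and 62 tags, 2.33% of the gene, beside 2140 in introns. VEGFA, the angiogenic growth factor, had 10 and 53, HTATIP2 12 and 30, and MDM4, an inhibitor of p53, 13 and 29. TNC, tenascin C, had 6 and 20, HBP1, a transcriptional repressor, 4 and 15, and MXI1, a MAX partner that opposes MYC, 2 and 11. In the last 6 the coding share was between 5.60% and 15.6%.

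Along the genes, CDS clusters were mostly far apart in the genome and were slightly deeper toward the 3′ end. Of 18541 pairs of neighbouring CDS clusters in a gene, 55.4% were more than 1000 nt apart, the median gap was 1411 nt, and 3681 (19.9%) lay within 50 nt, of which 500 overlapped by at most 2 nt. In 1555 genes with 5 or more CDS clusters, the clusters nearer the 3′ end held more tags than those nearer the 5′ end by 0.16 in replicate 1 and 0.22 in replicate 2 on the log2 scale, a mean of 0.19 ± 0.04 (SD, n = 2). The 3′ side was the higher in 978 of these genes (62.9%). The last CDS cluster was the deepest in 295 genes and the first in 127. In a gene, Spearman's correlation of a cluster's order with its tags had a median of 0.145, above 0 in 987 genes and below 0 in 549.

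Some cluster lengths exceeded those of the gene's reference transcript, and a gene symbol did not match its RefSeq location. Other transcripts of these genes were not examined. ANKRD1 held 2017 nt in 8 CDS clusters (278 and 1219 tags), 211% of its coding length of 957 nt, and its longest, 850 nt at chr10:92667395-92668245 with 68 and 246 tags, exceeded its longest coding exon of 180 nt. ERBB2IP held 103.8% of its coding length. The symbol RNU6-71P, a 107-nt U6 pseudogene that RefSeq places on chromosome 13, was given to 80 CDS clusters on the minus strand of chromosome 6, with 374 tags in replicate 1 and 1373 in replicate 2. Of these clusters 78 lay between the first and the last CDS cluster of DST, the spectraplakin dystonin, on the same strand. DST under its own name held 75 CDS clusters with 375 and 1464 tags, and both symbols together held 155 clusters and 3552 tags. A further 5 CDS clusters, with 28 and 117 tags, lay on the mitochondrial chromosome and carried no gene.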

How the data were processed

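HITS-CLIP of Flag-RBM47 was made in 2 replicate libraries of 1 group. Per the labels and methods, RNA fragments were tailed and reverse transcribed with barcoded primers, tags were aligned with Novoalign (version not given in the sources used here) to hg18, duplicates were collapsed, and tags were clustered with a location label and gene. The deposited table of clusters holds, as the authors made them, counts of unique tags per cluster in replicate 1, in replicate 2 and in total, unnormalized. It holds no reads, so depth is known only as tags in clusters, and intervals cover counting error only. The deposited total was below the replicate sum in 2566 CDS clusters (11.2%), and per-gene totals here use the deposited total while replicate values use the replicate columns. Coordinates are as deposited, and whether they count from 0 or 1 is not given in the sources used here.

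Clusters labelled CDS alone were read with Python 3.11.15, pandas 2.3.3, numpy 2.4.6 and scipy 1.17.1, and drawn with matplotlib 3.10.9. Replicate splits were tested with an exact two-sided binomial test over all 233546 clusters with Benjamini-Hochberg adjustment (threshold 0.05), because 1 group allows no comparison of conditions. On simulated data with 200 CDS clusters of at least 100 tags shifted 4-fold in odds, 91.5% were recovered (100% of raised and 83% of lowered) and 2 unshifted clusters were called. Differences between location classes were taken per replicate as log2 means, with an exact two-sided sign-flip permutation test. Biotype, coding length, exons and base content came per gene from RefSeq and from the principal transcripts of GENCODE 44 lifted to GRCh37, matched by gene; no coordinates were compared between builds.

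The genes named are the 25 with the most CDS tags, the 10 deepest clusters, the 10 highest coding shares among genes with 500 or more tags, the genes with the most clusters, the clusters called, and the leading 3 of each of 13 gene lists; some of these genes are not reported here. The clusters, lists and tests were chosen with earlier results of these data known. Alternatives were tag minimums of 10, 30 and 100, every label that includes CDS, clusters whose replicate counts add up to the total, tags per nt, values within genes, each replicate left out, median ratio scaling and a beta-binomial test. No cluster sequences were read, since no genome of the files' build was used.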

Additional observations from a re-analysis of the deposited data

How the results depend on the processing

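Of 65 alternative values 27 stayed within the limits set, 35 moved and 3 reversed. The CDS share of clusters was 9.77% and became 11.9%, 10.3% and 6.88% at tag minimums of 10, 30 and 100, 12.0% with every label that includes CDS, 9.99% with clusters whose replicate counts add up to the total, and 10.7% to 10.9% without either replicate. The CDS share of tags, 8.30%, became 6.27% and 3.79% at minimums of 30 and 100, 16.6% with every CDS label and 9.32% with summing clusters, and was 8.17% to 8.43% without either replicate. The CDS minus 3′UTR difference stayed negative, at -0.56, -0.44 and -0.40 at minimums of 10, 30 and 100, -0.51 with summing clusters, -0.36 per nt, -1.04 within genes and -0.61 to -0.57 without either replicate. The CDS minus intron difference stayed positive, at 0.24, 0.10 and 0.057 at minimums of 10, 30 and 100 and 0.32 to 0.50 without either replicate. The CDS minus 5′UTR difference reversed at -0.0016, -0.14 and -0.16 at these minimums, and was 0.42 within genes and 0.06 to 0.21 without either replicate; the cause was not tested. Spearman's correlation between replicates was 0.524, 0.676 and 0.742 at these minimums and 0.556 with every CDS label. Discordant CDS clusters numbered 1 with median ratio scaling and 0 with the beta-binomial test, which allows for more spread than counting. Genes with more than 100 CDS tags fell from 878 to 315 when only clusters of 30 or more tags were summed, and were 126 to 698 without either replicate, the 126 without replicate 2, the deeper library. Genes with more CDS tags than tags in 3′UTR-alone clusters fell from 650 to 360 and 90 at minimums of 10 and 30. They were 642 to 674 without either replicate. The median coding share per gene, 10%, became 10.5% and 11.8% at minimums of 10 and 30, 15.3% with every CDS label and 11.2% with summing clusters, and was 9.79% to 10.2% without either replicate. No paired analysis was possible because both libraries belong to 1 group. Depth limits single clusters, of which 55.9% had at most 2 tags in replicate 1.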
